A study of Mus musculus with 55 samples.

Results

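Jun and 7 other immediate early genes (Junb, Jund, Fos, Fosb, Egr1, Atf3 and Ier2) were followed through single mouse oocytes, 8 of the 51734 genes listed in the count tables. The group was chosen by the level of Jun, which was lower in all 3 mutants of the study than in wild type, so the mutant and wild-type levels are given here as a description, without a test. Each library came from 1 oocyte. Fully grown oocytes (FGOs), the large oocytes at the end of growth, came from ovaries of mice 10 to 12 weeks old: 18 wild type, 8 homozygous for the Dnmt3L ADD mutation (D124A/D124A, with wild-type Dnmt3a, called the Dnmt3L mutant), 8 homozygous for the Dnmt3a ADD mutation (ADA/ADA, with wild-type Dnmt3L, the Dnmt3a mutant) and 8 homozygous for both (the double mutant). Another 10 libraries came from wild-type MII oocytes, the matured stage ready for fertilization, and the labels give no age for these. For in vitro fertilization, the study's methods describe MII oocytes taken from oviducts of females injected with inhibin antiserum and chorionic gonadotropin. They do not say whether the sequenced MII oocytes were obtained in this way, whereas FGOs came from punctured ovaries. The ADD mutations are germline substitutions in the domain with which the de novo DNA methyltransferase DNMT3A and its cofactor DNMT3L read unmodified histone H3, so they are present in every cell of the mice and counts of the mutated genes do not check the genotype. FGOs were pooled when collected and the sources do not tie oocytes to animals, so p-values measure the spread between oocytes.

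Immediate early genes are switched on within minutes of a stimulus, without new protein synthesis, by kinase cascades that act on factors already bound to their promoters. Jun, Junb and Jund encode the Jun proteins, which pair with one another or with Fos and Fosb to form AP-1, a factor that binds the TGANTCA sequence (N is any base). Egr1 is a zinc finger factor, Atf3 a stress-induced bZIP factor that also pairs with Jun proteins, and Ier2 a short nuclear protein induced by growth factors. In the ovary these genes are known above all as fast responses of granulosa and cumulus cells to gonadotropins.

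The counts behind the members were small. Libraries held 7832458 to 23739871 counts in total, and Jun took 397 counts over the 18 wild-type FGOs, 40 over the 8 FGOs of the Dnmt3L mutant, 37 over those of the Dnmt3a mutant, 6 over the double mutant ones and 30 over the MII oocytes. A count of 0 allows up to 3 counts at this depth, counting error only, if counts are independent of one another. Small counts were mostly even, so the limit may be wider. All 8 members passed the filter on low counts in the fits used here, Jun through its wild-type counts: with only double and single mutant FGOs, or only both single mutants, in a fit, it did not pass. The wild-type FGOs fall into replicates 1 to 8 and 9 to 18, which the study's sequencing summary places in a lower and a higher class of mapped reads. All double mutant libraries and Dnmt3a mutant replicates 1, 2 and 8 belong to the lower class, and all Dnmt3L mutant and the other Dnmt3a mutant libraries to the higher.

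On the mm10 assembly, Jun lies on chromosome 4 (95049034 to 95052222, minus strand, 3189 exonic bases in the tables), Junb on chromosome 8 (84974484 to 84978718, minus, 2301), Fos on chromosome 12 (85473890 to 85477273, plus, 2352) and Fosb on chromosome 7 (19302696 to 19310051, minus, 6243). Jund and Ier2 are also on chromosome 8 (70698949 to 70700616, plus, 1668, and 84661331 to 84662852, minus, 1522), and Atf3 is on chromosome 1 (191170296 to 191218039, minus, 2154). Exons of Jun overlap the antisense gene Junos, and those of Junb overlap Prdx2 on the other strand. Whether counting used strand is not given in the sources used here, so reads of such pairs cannot be told apart. Junos had 0 to 27 counts in wild-type FGOs and 6 to 16 in double mutant FGOs, where Jun had 0 to 2. Prdx2 had a median of 2931.5 counts in wild-type FGOs and Junb 57.5, so all values of Junb given here carry this limit.

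The promoters of Jun and Fos are shown because the levels measured for these 2 AP-1 genes were lower at the MII stage. For Jun, picked for its high level in the same wild-type FGOs, this difference supports nothing on its own. For Fos, the difference did not pass with the replicate number as a block. RefSeq (GRCm38.p6) gives 300 bases for each promoter, from 250 before the start site, at chr4:95052173-95052472 (minus strand) and chr12:85473640-85473939 (plus strand). Capitals mark TGACATCA, the AP-1-like site described for Jun, and TATAAA, the TATA box.
Jun: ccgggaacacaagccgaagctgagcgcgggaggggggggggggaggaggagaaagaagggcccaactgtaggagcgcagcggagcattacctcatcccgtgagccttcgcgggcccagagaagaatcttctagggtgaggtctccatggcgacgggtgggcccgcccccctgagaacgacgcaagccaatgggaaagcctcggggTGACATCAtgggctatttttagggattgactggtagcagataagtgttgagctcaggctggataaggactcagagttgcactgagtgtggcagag
Fos: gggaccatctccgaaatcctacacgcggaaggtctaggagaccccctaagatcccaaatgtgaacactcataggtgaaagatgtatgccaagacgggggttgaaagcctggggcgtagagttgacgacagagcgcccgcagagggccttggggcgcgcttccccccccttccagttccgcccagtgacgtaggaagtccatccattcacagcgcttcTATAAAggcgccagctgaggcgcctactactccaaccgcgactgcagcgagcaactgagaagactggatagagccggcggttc

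The TGACATCA of Jun begins 45 bases before the start site, and 3.62% of the 32851 promoters of this length hold these letters on either strand. The TATAAA of Fos begins 33 bases before its start, and 13.6% of the promoters hold it. Neither window holds TGANTCA (7.81% of promoters) or TGACGTCA, the cyclic AMP response element (1.79%), on either strand. RefSeq entries were matched for 6 of the 8 members.

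Egr1 was the most abundant member. Per length, its mean level in wild-type FGOs was 8.40 ± 1.42 RPKM (counts scaled by library size and gene length, SD, n = 18). Jund followed with a mean of 2.94 ± 1.38 RPKM and Junb with 1.87 ± 0.63 RPKM. Ier2 (1.06 ± 0.67), Atf3 (0.90 ± 0.36) and Fosb (0.85 ± 0.19) lay close together in mean RPKM, and Fos (0.46 ± 0.24) and Jun (0.43 ± 0.32) were lowest. In this order, Jund and Junb, Ier2 and Atf3, Atf3 and Fosb, and Fos and Jun differed by less than the larger of their SDs. The most even member was Egr1, with a coefficient of variation of 16.9% between wild-type FGOs, and the most uneven was Jun, with 73.5%.

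**Figure D1:**
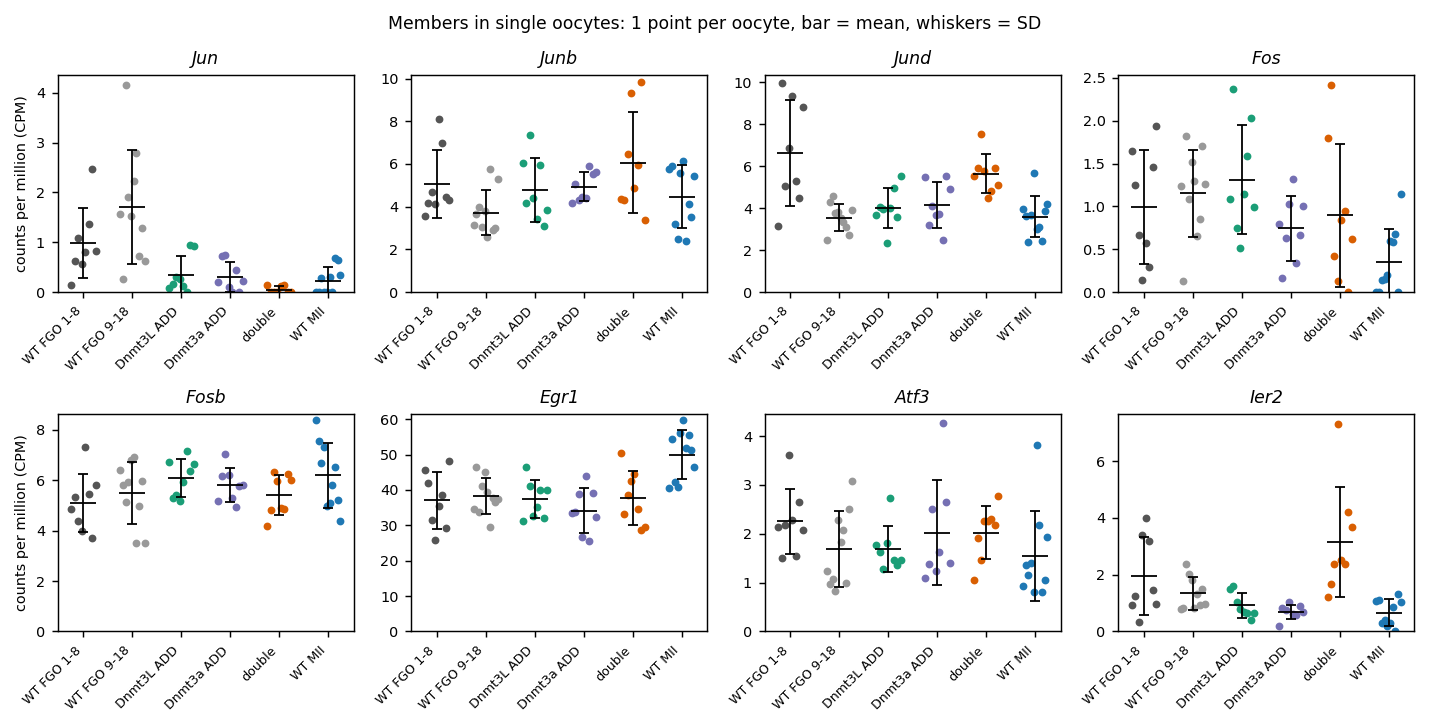
Level of each of the 8 genes in single oocytes, in CPM (counts scaled to library size, vertical axis from 0, its own scale for each gene), for both wild-type FGO sets, the 3 mutants and MII oocytes. Each point is 1 oocyte, with the mean as a bar and whiskers of 1 SD. Jun is at 0 in 5 of 8 double mutant oocytes, while Ier2 is highest there, at up to 7.31 CPM.

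Jun was detected in every wild-type FGO but at very different levels. Its level, in CPM (counts scaled to library size), ran from 0.143 CPM (replicate 1) over a median of 1.19 to 4.16 CPM (replicate 11). Dnmt3L mutant FGOs held 0 to 0.949 CPM with a median of 0.211, and Dnmt3a mutant FGOs 0 to 0.753 CPM, also with a median of 0.211. Every one of these 16 single mutant oocytes lay below the wild-type median, 3 of each genotype lay below the lowest wild-type FGO, and the ranges overlapped. In double mutant FGOs, Jun had 2, 0, 0, 0, 2, 2, 0 and 0 counts in replicates 1 to 8, or 0 to 0.150 CPM. Thus 7 of 8 lay below the lowest wild-type FGO, and none reached the lowest FGO of replicates 9 to 18.

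The fitted difference of Jun from wild type was -1.94 on the log2 scale (SE 0.56) for the Dnmt3L, -2.13 (SE 0.56) for the Dnmt3a and -4.54 (SE 0.73) for the double mutant. These contrasts chose the group, so nothing is read from the share of all genes past an adjusted p of 0.05 and 2-fold, which was 0.655%, 2.05% and 1.65% in the 3 contrasts. Against wild-type FGOs of the same mapped-read class, the difference was -2.23 for the Dnmt3L (higher class) and -4.05 for the double mutant (lower class). Dnmt3a mutant FGOs gave -1.35 in the lower and -2.60 in the higher class, and these too are values the choice of Jun rested on.

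Apart from Ier2, which was also lower in both single mutants, the other members did not follow Jun in the mutants. Fosb, Egr1, Atf3 and Jund differed from wild type by -0.28 to 0.19 on the log2 scale in the 3 mutants, and Junb by 0.15 in the Dnmt3L, 0.20 in the Dnmt3a and 0.48 in the double mutant. For Fos the differences were 0.30, -0.53 and -0.28 in the same order, each with an SE above 0.40. Ier2 took both directions, with -0.79 (SE 0.34) in the Dnmt3L, -1.20 (SE 0.35) in the Dnmt3a and 0.96 (SE 0.30) in the double mutant. These differences are from all 18 wild-type FGOs. Replicates 1 to 8, of the same mapped-read class as the double mutant, held 0.336 to 4.00 CPM of Ier2 and replicates 9 to 18 held 0.782 to 2.39. Of the double mutant FGOs, 2 of 8 lay above all of replicates 1 to 8 and 7 of 8 above their median. Of 62 tested genes on the lists of AP-1 partners, other early transcription factors, other early response genes and upstream kinases and factors, 2 (3.23%) passed the call in double mutant FGOs, where 1.65% of all genes did, and 0 in either single mutant. Both were lower, Myc (-1.75), a transcription factor of cell growth, and Zfp36l1 (-1.50), an mRNA decay factor.

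Whether carrying both mutations differs from carrying 1 was tested between the mutants. Ier2 was higher in double mutant than in either single mutant FGOs. With Jun left aside and described apart, no other member passed. Ier2 had 16, 23, 34, 110, 42, 35, 54 and 48 counts in double mutant replicates 1 to 8, a level of 1.20 to 7.31 CPM with a median of 2.44. Dnmt3a mutant FGOs held 0.199 to 1.03 CPM of Ier2 and Dnmt3L mutant FGOs 0.407 to 1.59. All 8 double mutant FGOs lay above every Dnmt3a mutant FGO, and 7 of 8 above every Dnmt3L mutant FGO. The rise of Ier2 was 2.16 on the log2 scale (SE 0.39, adjusted p = 0.000145, edgeR quasi-likelihood test) over Dnmt3a mutant and 1.75 (SE 0.39, adjusted p = 0.00168) over Dnmt3L mutant. Within the lower mapped-read class alone, it was 2.42 over the 3 Dnmt3a mutant libraries (adjusted p = 0.0357). Double mutant and Dnmt3L mutant libraries share no class, so in that comparison the effects of genotype and class cannot be told apart.

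Jun was picked for being low in these same mutant libraries and entered the fit through its wild-type counts, so its values here support nothing on their own. As a description, its log2 difference for the double mutant was -2.41 (SE 0.85) from the Dnmt3a and -2.60 (SE 0.84) from the Dnmt3L mutant. Ranges overlapped, since single mutants also held oocytes with 0 counts (1 of 8 Dnmt3L mutant and 2 of 8 Dnmt3a mutant). Over single libraries left out, the difference from the Dnmt3a mutant ran from -2.75 to -2.07 and that from the Dnmt3L mutant from -2.94 to -2.20. Within the lower mapped-read class, the difference from the Dnmt3a mutant was -2.70. With only the compared groups in the fit, Jun did not pass the count filter and could not be tested.

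Leaving Jun aside, 1 of 7 members was called in each comparison, where 5.86% of all genes tested passed against Dnmt3a mutant and 4.03% against Dnmt3L mutant. Jund, at 4.48 to 7.52 CPM in double mutant FGOs, exceeded all single mutant FGOs in 5 of 8 oocytes, yet its differences of 0.45 (adjusted p = 0.148) and 0.47 (adjusted p = 0.137) did not pass in edgeR. Its level also differed between the mapped-read classes within wild type, with medians of 6.07 CPM in replicates 1 to 8 and 3.64 in replicates 9 to 18. Of the double mutant FGOs, 7 of 8 lay below the median of replicates 1 to 8. Among the listed pathway genes, Id3, an inhibitor of bHLH factors, and Dusp2, a phosphatase of MAP kinases, were higher in double mutant FGOs than in both single mutants, by 2.06 and 1.95 against Dnmt3a mutant and by 1.65 and 2.47 against Dnmt3L mutant. Map2k7, a kinase upstream of JNK and so of Jun, was higher by 1.05 and Zfp36l1 lower (-1.26) against Dnmt3a mutant, and the chaperone gene Hspa1a was higher by 1.11 against Dnmt3L mutant. In all, 4 (6.45%) and 3 (4.84%) of the 62 listed genes tested were called, shares near those of all genes, and no AP-1 partner passed among 8 tested. Id3 and Dusp2 also differed between the mapped-read classes within wild type, with medians of 4.71 and 2.45 CPM in replicates 1 to 8 and of 1.92 and 1.05 CPM in replicates 9 to 18, and all double mutant libraries are of the lower class.

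No member passed the test between the single mutants. Jun differed by -0.19 (SE 0.66) and Ier2 by -0.41 (SE 0.41), and the largest difference was that of Fos, at -0.83 (SE 0.50, adjusted p = 0.852 in edgeR). The call reached 0 of all genes (0%) in edgeR and 22, with 0 members, in DESeq2, and 1012 genes but 0 members had an unadjusted p under 0.05 in edgeR.

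**Figure D2:**
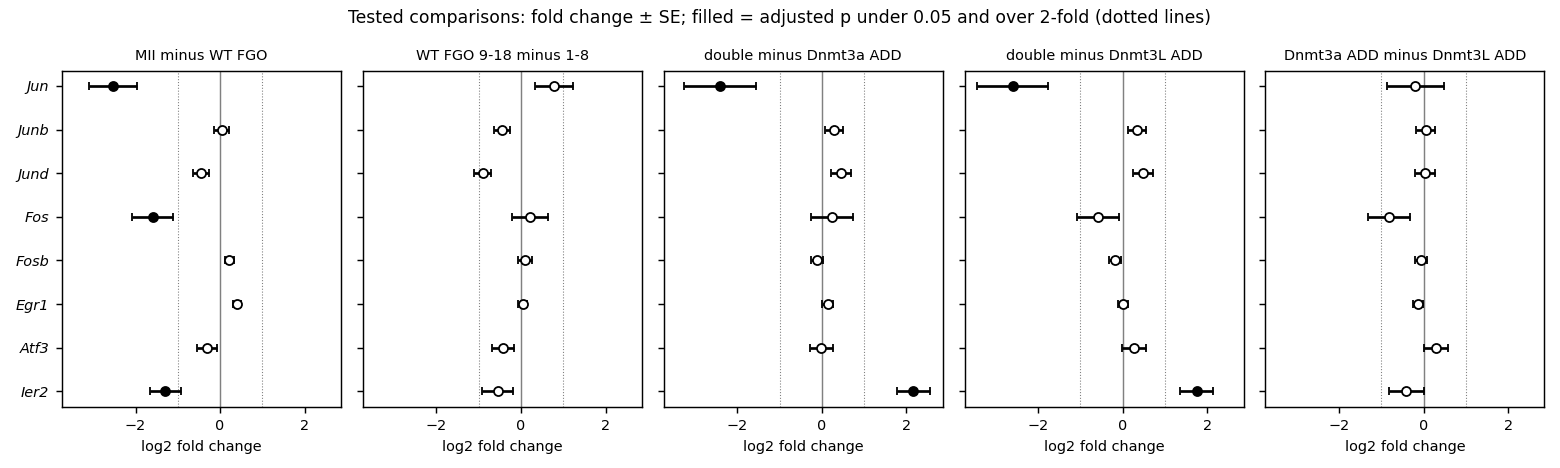
Log2 fold change (horizontal axis) with its SE for the 8 genes in the 5 tested comparisons, 1 panel each. Filled points passed an adjusted p of 0.05 and 2-fold (dotted lines), namely Jun, Fos and Ier2 in MII oocytes and Jun and Ier2 in both comparisons of double with single mutants. Jun was picked on these libraries and entered the fits through its wild-type counts, so its filled points support nothing on their own. Fos and Ier2 passed the count filter of the MII comparison through FGOs.

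Between FGOs and MII oocytes, Jun, Fos and Ier2 fell, while Egr1 was higher by less than 2-fold. In MII oocytes, Jun had 0, 0, 4, 0, 0, 4, 0, 10, 8 and 4 counts in replicates 1 to 10, up to 0.680 CPM, and each oocyte lay below the wild-type FGO median. Its difference was -2.54 on the log2 scale (SE 0.57), a value that supports nothing on its own. Jun was picked for a high level in these same wild-type FGOs against mutants and passed the count filter through them. Fos ran from 0 to 1.14 CPM with a median of 0.178, against 0.129 to 1.94 with a median of 1.24 in wild-type FGOs. Fos fell by 1.60 on the log2 scale (SE 0.48, adjusted p = 0.00721, edgeR quasi-likelihood test). This call ended with the replicate number as a block (-1.397, adjusted p = 0.0685). Fos had a median of 2 counts in MII oocytes and passed the count filter through FGOs, the stage where it was higher, so its p-value carries this limit. With no filter beyond 1 count, its difference was -1.583 (adjusted p = 0.0132, edgeR). Ier2, at 0 to 1.31 CPM with a median of 0.629 in MII oocytes and 0.336 to 4.00 with a median of 1.27 in wild-type FGOs, fell by 1.30 (SE 0.36, adjusted p = 0.00379). With a median of 8.5 counts in MII oocytes, under the minimum count of 10, Ier2 also passed the filter through FGOs. The ranges of these 3 genes overlapped between the stages, though no MII oocyte exceeded the FGO median in Jun or Fos and 1 of 10 did in Ier2. Stage, way of collection and any hormone treatment of the donors go together here and cannot be told apart.

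The background for these calls was wide, with 9.2% of all genes tested past the call in either direction, 9% lower and 39.1% past the adjusted p at any fold. With Jun left aside, 2 of 7 members were called, Fos and Ier2, both of which passed the count filter through FGOs. Egr1 was higher in MII oocytes by 0.41 (SE 0.09, adjusted p = 0.000494), at 40.6 to 59.8 CPM against 25.8 to 48.2, which is under 2-fold. Jund was lower, with a difference of -0.45 (SE 0.19, adjusted p = 0.0476), also under 2-fold, but its difference was 0.02 when only wild-type replicates 9 to 18 served as FGOs. Junb (0.04), Fosb (0.22, adjusted p = 0.114) and Atf3 (-0.32, adjusted p = 0.296) did not pass.

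Of the 63 listed pathway genes tested, 10 (15.9%) were called lower in MII oocytes, where 9% of all genes were, and 0 were called higher. Among the listed transcription factors, 5 of 15 tested were lower and none higher, led by Id3 (-2.74), Myc (-2.15) and Nr4a3 (-1.45), an orphan nuclear receptor. Of the other response genes, 3 of 20 were lower: Gadd45b (-2.37, a stress sensor), Zfp36l1 (-1.28) and Dusp2 (-1.22). Mafk (-2.03), a small Maf protein, was 1 of 8 AP-1 partners and Map2k7 (-1.87) 1 of 20 upstream kinases and factors called lower. The list medians were -0.26 for AP-1 partners, -0.58 for transcription factors, -0.07 for response genes and 0.11 for upstream genes, against -0.05 for all genes tested.

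Within wild type, the 2 library sets did not part any member by 2-fold, with 0 of 8 called in edgeR and in DESeq2 against 3.72% of all genes tested. Jund had the clearest difference, at 3.15 to 9.97 CPM (median 6.07) in replicates 1 to 8 and 2.48 to 4.55 (median 3.64) in replicates 9 to 18. All 10 FGOs of the second set lay below the median of the first (log2 difference -0.90, SE 0.20, adjusted p = 0.00316, edgeR quasi-likelihood test). Jun was at a median of 0.816 CPM in the first and 1.54 in the second set, a difference of 0.78 that did not pass (SE 0.45, adjusted p = 0.21). Junb (-0.45, adjusted p = 0.0876) and Ier2 (-0.56, adjusted p = 0.287) did not pass, and Fos (0.22), Fosb (0.10), Egr1 (0.04) and Atf3 (-0.42) did not pass either. Of the listed genes, Id3 (-1.58), Dusp2 (-2.07), Batf3 (-1.04) and Csrnp1 (-1.01) were lower and Plk2 (1.23) higher in the second set.

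Several markers of other ovarian cells, though not all, were lower where Jun was low. The FGOs expressed oocyte markers strongly, with Gdf9 at 1479 to 2353 CPM in all FGOs, and all 14 oocyte markers were detected in every group. The summed level of the 19 granulosa and cumulus markers was 151 to 341 CPM over the wild-type FGOs, 131 to 181 over the Dnmt3L, 134 to 265 over the Dnmt3a and 137 to 159 over the double mutant FGOs, and 116 to 149 over the MII oocytes. Much of this sum is shared by all oocytes, since Cyp19a1 alone stood at medians of 23.1 to 28.7 CPM in the 5 groups. Some markers were at 0 throughout a group: Amh was at 0 in all 10 MII oocytes, Inhbb likewise, and Ptx3 in every FGO. Inha, the inhibin alpha subunit, had a median of 7.56 CPM over the wild-type, 3.54 over the Dnmt3L, 2.25 over the Dnmt3a and 0.986 over the double mutant FGOs and of 0 over the MII oocytes.

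By the same call, 13 of 18 granulosa and cumulus markers tested were lower at the MII stage than in wild-type FGOs, and 8 of 18 were lower in double mutant FGOs in each comparison with a single mutant. Of all genes tested, 1421 of 15784 were lower in MII oocytes. Beside the double mutant comparisons, 232 of 15726 genes were lower against the Dnmt3a and 183 of 15726 against the Dnmt3L mutant. Theca and interstitial markers were lower for 4, 1 and 1 of 6 and stroma and smooth muscle markers for 4, 5 and 5 of 7 in the same comparisons. In double mutant FGOs Lum, Acta2 and Tcf21 had no count in any library and Col3a1 none in 7 of 8. Endothelium and blood markers were lower for 0, 0 and 1 of 4, and the oocyte list for 2 (Zp2 and Zp3, in MII oocytes), 0 and 0 of 14. The summed theca and interstitial level was 14.4 to 75.4 CPM in wild-type and 7.35 to 35.6 in double mutant FGOs and 4.91 to 19.2 in MII oocytes, and that of stroma and smooth muscle 222 to 452, 215 to 302 and 325 to 452 CPM. Other values went the other way: the median stroma and smooth muscle sum was 341 CPM in wild-type FGOs but 412 in the Dnmt3a mutant and 386 in MII oocytes, and that of endothelium and blood was 109 CPM in wild-type FGOs but 120 in the Dnmt3L and 126 in the Dnmt3a mutant. These wild-type medians mix both library sets. Replicates 1 to 8 and 9 to 18 had medians of 278 and 397 CPM for stroma and smooth muscle. For endothelium and blood they had 88.2 and 119 CPM. Replicates 1 to 8, of the same mapped-read class as the double mutant, held 222 to 323 CPM of stroma and smooth muscle. Col1a2 (2.34) and Has2 (1.27) were called higher in Dnmt3a mutant than in wild-type FGOs, and Has2 (1.39) also in double mutant FGOs. Against wild-type FGOs, 3 of 18 granulosa and cumulus markers were called lower in the Dnmt3L, 5 in the Dnmt3a and 11 in the double mutant. Of all 15726 genes tested, 93, 276 and 232 were lower in the same order. Cumulus cells had been stripped from the FGOs by washing through a capillary. The part of these cells in the levels of Jun and Fos was not tested, and in such libraries fewer carried cells and less RNA per cell cannot be told apart. Ier2 went the other way in double mutant FGOs, where it was higher while these markers were lower.

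**Figure D3:**
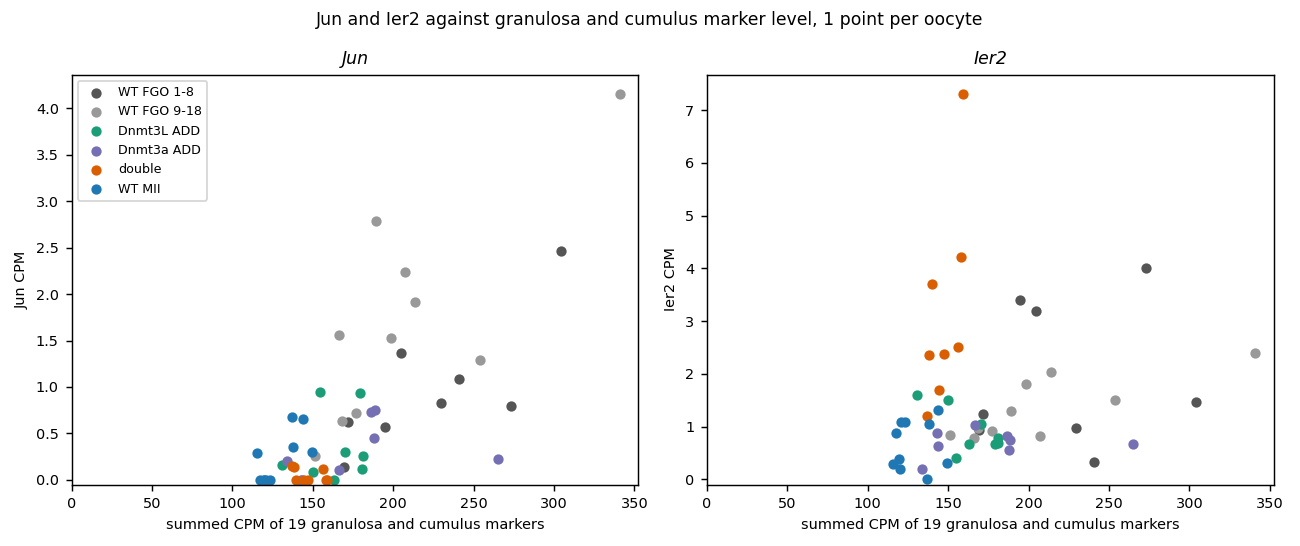
Level of Jun (left) and Ier2 (right) in CPM against the summed CPM of 19 granulosa and cumulus markers, 1 point per oocyte and 1 colour per group. Wild-type replicate 11 has the highest marker sum, 341 CPM, and the highest Jun, 4.16 CPM, whereas double mutant FGOs reach 7.31 CPM of Ier2 at sums of 137 to 159 CPM.

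Across the 18 wild-type FGOs, the log2 level of Jun and the log2 sum of granulosa and cumulus markers had a Pearson's r of 0.61 and a Spearman's rho of 0.538, and r was 0.399 without the 2 oocytes farthest from the median sum. Within replicates 1 to 8 (n = 8) r was 0.76, falling to 0.355 without 2 oocytes, and within replicates 9 to 18 (n = 10) it was 0.719 and 0.791. For Fos, r was 0.32 over the 18, 0.0716 within replicates 1 to 8 and 0.624 within replicates 9 to 18. For Ier2 it was 0.357, 0.0645 and 0.772 in the same order. Points share a library and its depth, and these values are a description.

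By likeness to Jun over the 42 FGOs, with the mean of each genotype and wild-type set removed from log2 CPM, the nearest gene was Inha (Pearson's r 0.593), which is also in the granulosa list. Gstm2, a glutathione transferase (0.589), Cpe, a carboxypeptidase that trims hormones (0.559), Elovl6, a fatty acid elongase (0.555), and Gramd1b, a sterol carrier (0.553), came next. Ucp2 (0.548), Ndrg2 (0.548), Ikzf3 (0.547), Cnmd (0.536) and Prps2 (0.535) completed the 10. These are the highest r among 15725 genes ranked. How high r reaches between unrelated genes was not tested, so the 10 are a description only. Their wild-type medians ran from 0.626 CPM (Ikzf3) to 7.56 CPM (Inha), against 1.19 CPM for Jun.

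No other member was among them. Fos ranked 5379 of 15725 genes by likeness to Jun (r 0.0742) and Egr1 14615 (r -0.236), and Ier2, Atf3, Fosb, Junb and Jund lay between -0.106 and -0.01. Among the remaining pairs, Junb and Ier2 had the highest r, 0.457, and Junb and Fos the lowest, -0.492. Ier2 and Fos stood at -0.36 and Egr1 and Fos at 0.29. Over the 28 pairs, r ran from -0.492 to 0.457, and whether the 8 genes vary together from oocyte to oocyte was not tested. Jun had median counts of 3, 3 and 0 in Dnmt3L, Dnmt3a and double mutant FGOs. In the same order, Fos had 14, 9 and 11 and Ier2 10, 10 and 38.5, so counting noise weighs on the r of these genes.

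**Figure D4:**
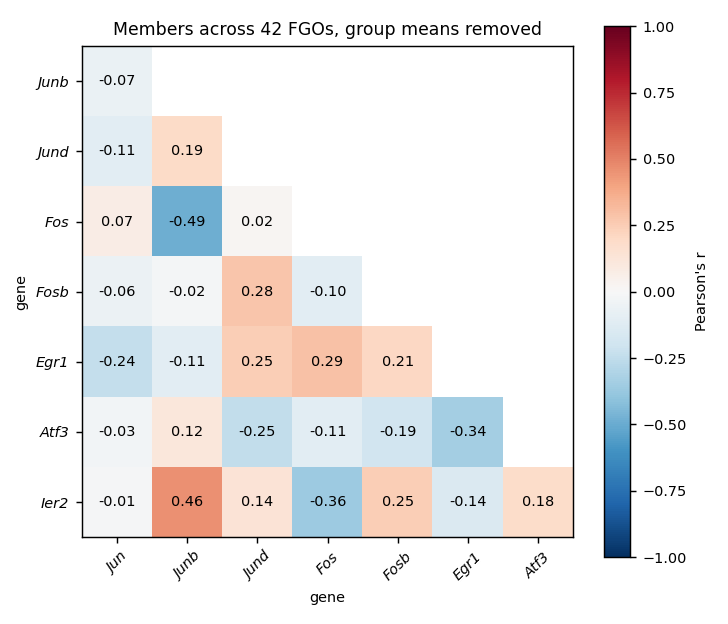
Pearson's r (colour and number) between the log2 CPM of each pair of the 8 genes over 42 FGOs, after the mean of each genotype and wild-type set was removed. The row of Ier2 holds the highest value, 0.46 with Junb, and the column of Jun stays between -0.24 and 0.07.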

How the data were processed

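The authors deposited raw counts per gene for 52 single-oocyte libraries made with the SMART-Seq HT kit. Per the labels and the study's methods, reads were aligned to mm10 with STAR and counted with featureCounts or HTSeq. The annotation release, the strand setting and the handling of multi-mapping reads are not given in the sources used here. Small counts were mostly even (60.9% to 70.5% of counts from 1 to 20 per library), which could arise if both mates were counted, and this was not tested. No 2 libraries of a group agreed within counting noise (lowest chi-square per degree of freedom 5.39). The allelic counts of 3 embryos were not used here.

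The members and gene lists were chosen with earlier results of these data known. Differences were tested by the quasi-likelihood method of edgeR 4.0.16 (R 4.3.3) on TMM library sizes after filterByExpr (minimum count 10), and a gene was called at a Benjamini-Hochberg adjusted p under 0.05 over all genes tested and a fold change over 2. MII oocytes were compared in a fit of 52 libraries (15784 genes), genotypes in 1 of 42 FGOs (15726 genes) and wild-type sets in 1 of 18 (14664 genes). CPM used TMM library sizes, RPKM the gene length of the tables, and correlations log2 CPM with a prior count of 2 (against marker sums, log2 of the gene's CPM plus 0.1). The biological coefficient of variation was 23.2% to 25.2% in these fits. The test was checked on simulated data. Named genes were the 8 members, the 10 genes most correlated with Jun, and up to 3 called genes per pathway list, direction and comparison. Marker genes named with their values, including Col1a2 and Has2, and Myc and Zfp36l1 in double mutant against wild-type FGOs, were chosen after their values were seen. Marker lists covered the oocyte and granulosa and cumulus, stroma and smooth muscle, theca and interstitial, and endothelium and blood cells. Alternatives were other size factors, DESeq2 1.42.0, no filter, smaller fits, the replicate number as a block, parts of the wild-type or mapped-read classes, each library left out, and, added after the data were seen, halved counts. Figures were drawn with matplotlib 3.10.9.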

Additional observations from a re-analysis of the deposited data

Results flagged for a closer look

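Of 48 groups checked (8 genes in 6 groups), 2 held an oocyte far from the rest by the gap to its neighbour over the range of the group, a check that picks out about 1 in 20 groups by chance. Both concerned Atf3. Dnmt3L mutant replicate 5 had 2.74 CPM (24 counts), above the next oocyte at 1.81 and a median of 1.55 CPM. MII replicate 6 had 3.82 CPM (51 counts), above the next at 2.17 and a median of 1.26 CPM.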

How the results depend on the processing

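Calls of Jun are counted here, though no weight rests on them. The count of members called in MII oocytes was 3 in all settings but the replicate block. There it was 2 and Fos was lost (-1.397, adjusted p = 0.0685, edgeR). Between wild-type sets and between single mutants, the count was 0 in all settings. Against the Dnmt3a mutant, it was 1 (Ier2) in place of 2 in the lower mapped-read class and with only the 2 groups in the fit, where Jun did not pass the count filter, and 1 to 2 over single libraries left out. Against the Dnmt3L mutant, it was likewise 1 with only the 2 groups in the fit, and 1 with the block (Jun -2.335), and 1 to 2 over libraries left out. Replicate numbers did not pair oocytes (mean same-number correlation -0.0482 to 0.0501), and the block changed no other call. Ier2 was called against both single mutants in every setting. Directions turned only in genes with no call: Junb in MII oocytes with the block (-0.0726), with wild-type replicates 1 to 8 (-0.18) and over libraries left out (-0.0213 to 0.128), and Jund there with replicates 9 to 18 (0.0242). Against the Dnmt3a mutant, they turned for Fos with the block (-0.0706) and over libraries left out (-0.139 to 0.439), and for Atf3 with the block (0.0121), in the lower class (0.62) and over libraries left out (-0.0927 to 0.26). Egr1 turned over libraries left out between wild-type sets (-0.0238 to 0.113) and against the Dnmt3L mutant (-0.0559 to 0.0696). Causes were not tested. Total counts as library sizes moved group means by -3.71% to 3.7%. Depth limits Jun most, with 0 counts in 5 of 8 double mutant FGOs.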

Other observations

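Cyp17a1, the androgen-making enzyme of theca cells, had 16 to 75 counts in all wild-type FGOs of replicates 1 to 8 and 0 to 5 counts in replicates 9 to 18, 6 of which were at 0, so the 2 wild-type sets did not overlap (log2 difference -4.88, SE 0.54, adjusted p = 1.13e-05, edgeR quasi-likelihood test). The gene was singled out after its values were seen. Dnmt3a mutant FGOs held 0 to 9 counts and Dnmt3L mutant and double mutant FGOs 0 to 2, so a level set against all 18 wild-type FGOs mixes both sets.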
